A study of Mus musculus with 60 samples.

Results

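Saline-injected mice were compared with naive mice in the striatum 4 h after the injection. The 6 arrays were all the arrays labelled saline or naive at 4 h, 3 of each, out of 60 striatum arrays in the series. All mice were male C57BL/6J animals of 8 to 10 weeks, and each array carried RNA pooled 1:1 from 2 mice, so that a group stood for 6 mice. The saline mice had received an intraperitoneal injection of the vehicle used as the control for ketamine, memantine and phencyclidine (PCP), whereas the naive mice had received no injection. The 60 arrays make up 20 groups of 3 arrays each, at 1, 2, 4 and 8 h after ketamine, memantine, PCP, saline or no injection. No source gives the cells or the sub-regions within the dissected striatum.

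An injection without a drug is itself a stimulus. Handling and the needle activate the hypothalamus-pituitary-adrenal axis, corticosterone then binds the glucocorticoid receptor, and this receptor raises the transcription of target genes such as Fkbp5, Sgk1 and Tsc22d3 in the brain. Immediate early genes such as Fos, Egr1 and Arc respond to the neuronal activity of the same period and are usually transient. The striatum consists mainly of GABAergic projection neurons, borders on the lateral ventricle with its ciliated ependyma and choroid plexus, and lies beneath the cortex.

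The 3 saline arrays were less alike than any other group of the series. The median SD of a probe between replicates was 0.35 on the log2 scale in saline at 4 h, against 0.21 to 0.27 in the other 19 groups, and naive at 4 h had the lowest value. Pearson's r between replicate arrays was 0.911 to 0.932 in saline and 0.966 to 0.974 in naive. Saline replicates 3 and 1 had the lowest and the next lowest mean correlation with the other arrays of the series (0.934 and 0.940), and saline replicate 2 had 0.955. The raw signal of saline replicate 3 also stood apart, with an array median of 646.1 intensity units against 166.9 to 438.8 on the other 59 arrays. Its lowest signal was 280.5 units and the ratio of its 99th percentile to its median was 12.4, the lowest of the 60 arrays. The raw signals precede normalization. The genes that the results turn on are therefore given with the value on each array, in the order of replicates 1, 2 and 3.

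**Figure D1:**
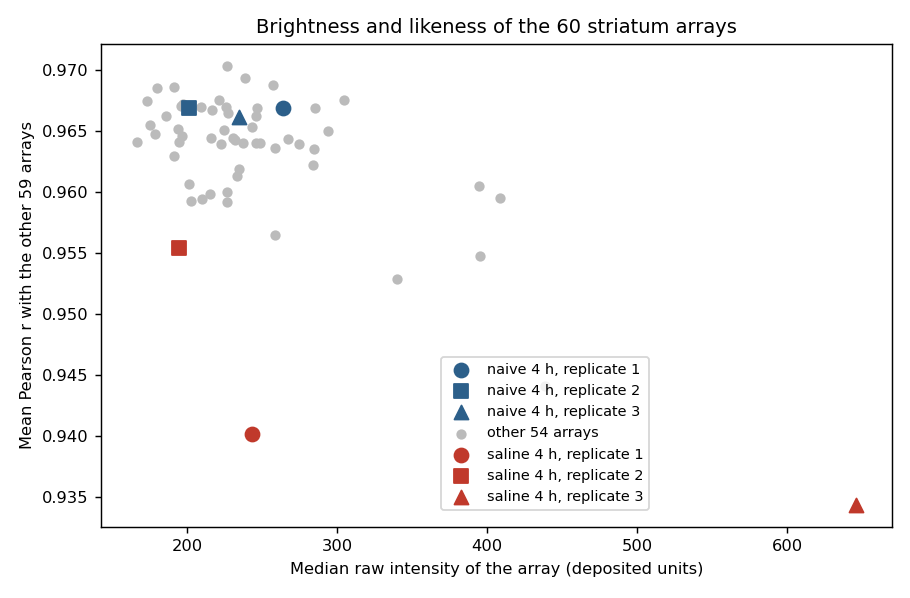
Median raw intensity of each of the 60 arrays (x axis, deposited units) against its mean Pearson correlation with the other 59 arrays after normalization (y axis). Saline 4 h arrays are red and naive 4 h arrays blue, with a circle, square and triangle for replicates 1, 2 and 3. Saline replicates 1 and 3 lie lowest, at 0.940 and 0.934, and replicate 3 lies far to the right at 646.1 units.

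The layout of the arrays was tied to the groups. No BeadChip, the slide that holds 6 arrays, carried both a saline and a naive array of 4 h, so no value within a BeadChip can be given. All 3 saline arrays of 4 h lay at position F of their BeadChip and all 3 naive arrays at position D, and position and treatment cannot be told apart at 4 h. The arrays of 8 h had the same positions. Nothing in the labels states that replicates came from separate days or cages. The p-values rest on a spread per probe that the replicate pools of all 20 groups share. The saline pools of 4 h spread more (median SD 0.35 against 0.21 to 0.27 in the other 19 groups), so the SEs can understate their spread.

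Saline differed from naive at 4 h in 115 of 44236 tested probes (0.26%, limma, Benjamini-Hochberg adjusted p under 0.05), and most of these were lower in saline. Among them were Cartpt, Igsf1, Clic6, Cfap45 and Col18a1 on the lower side and Lpcat2, Xpr1 and Bcl2 on the higher side. Of the called probes, 30 were higher (0.0678%) and 85 were lower (0.192%). They named 95 genes, and 17 carried no gene name. The median difference was 1.15 for the higher probes and -0.94 for the lower ones on the log2 scale. At an unadjusted p under 0.05 the count was 5243 (11.9%), with 5.13% higher and 6.72% lower. The saline and naive values did not overlap in 112 of the 115 called probes, against 11.7% of all tested probes (5.43% with saline higher and 6.29% with saline lower). The called probes were chosen by their difference on these same 6 arrays. The large share without overlap follows from that choice and is no separate support for the calls. The split between higher and lower moved with the processing. It was 68 higher and 115 lower without background correction, 90 and 133 on the authors' log2 values, and 2 and 25 with median scaling.

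The higher and the lower probes differed in brightness. Of the 30 higher probes, 21 lay below the median level of all tested probes, while 3 of the 85 lower probes did. The median level over 60 arrays was 6.70 for the higher and 8.55 for the lower probes. The saline replicates did not contribute alike. Among the 85 lower probes the median deviation from the naive mean was -1.07 on saline replicate 1, -0.58 on replicate 2 and -1.15 on replicate 3, and replicate 2 was the saline array nearest to naive in 68. Among the 30 higher probes the medians were 1.03, 0.86 and 1.26 on replicates 1, 2 and 3.

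**Figure D2:**
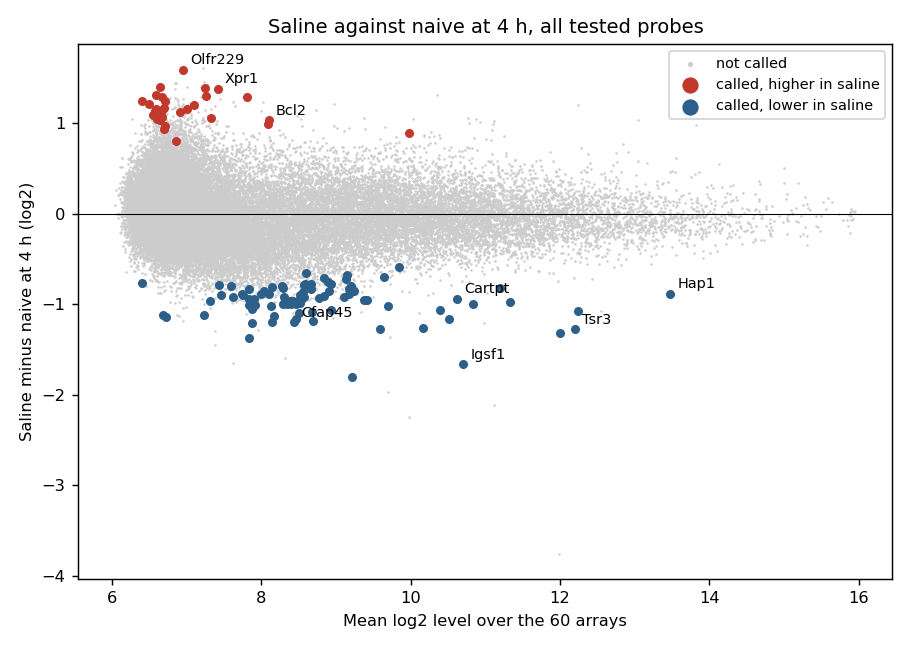
Log2 difference of saline against naive at 4 h (y axis) by the mean log2 level over 60 arrays (x axis), a point for each of 44236 tested probes. The 30 called higher probes (red) sit mostly at the dim end and the 85 called lower ones (blue) at middle and high levels.

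The number of calls depended on single arrays. Without saline replicate 1, 2 or 3 it was 279, 1123 or 56, and without naive replicate 1, 2 or 3 it was 69, 0 or 3. Every call described below was lost without naive replicate 2, where 4292 probes had an unadjusted p under 0.05. Array weights also removed all calls (3112 probes at an unadjusted p under 0.05), as did a fit to the 24 saline and naive arrays (4233) and a fit to the 6 arrays alone (2420). Besides genes chosen by size of difference or list membership, Acads, Adcy8, Avpr1a, Bcl2, Ddo, Hap1, Odf3b, Pygl, Rhoj, Rnf170, Rsph9, Serpina3n, Stk36, Arc, Avp, Fos, Foxj1 and Ttr are described below, chosen after their values were seen.

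Clic6 fell in saline, and most other markers of choroid plexus and ependyma had lower values there without passing the test. Clic6, a member of the chloride intracellular channel family that is abundant in choroid plexus epithelium, measured 9.41, 9.86 and 9.51 on saline replicates 1, 2 and 3 and 10.67, 10.82 and 10.48 on naive replicates 1, 2 and 3. The groups did not overlap, and the 3 saline values also lay below all 18 control arrays of the other times (9.92 to 10.66). The difference was -1.06 (SE 0.20, adjusted p = 0.0156), and naive replicates 1 and 2 lay at or above the top of those other controls.

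Clic6 was the only called member among 10 measured markers of choroid plexus and ependyma, 9 of which had a negative difference, with a median of -0.94 against -0.04 over all 18936 genes. Over all genes 54.9% had a negative difference and 0.275% were called lower. Of the 10, 6 were lower at an unadjusted p under 0.05, as were 8.88% of all genes. Ttr, transthyretin, the dominant secreted protein of the choroid plexus, measured 10.68, 10.36 and 10.73 in saline and 15.33, 15.39 and 12.35 in naive (difference -3.76, SE 1.14, adjusted p = 0.133). Naive replicates 1 and 2 were far above the other 4 arrays, and naive replicate 3 lay between. Kl, which encodes klotho, gave 6.64, 6.83 and 6.50 in saline and 8.48, 8.76 and 7.66 in naive (difference -1.64, SE 0.46, adjusted p = 0.100).

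The mean level of the choroid plexus and ependyma markers was 7.89, 7.92 and 7.80 on saline replicates 1, 2 and 3 and 9.14, 9.28 and 8.48 on the naive replicates. The other 18 control arrays ranged from 7.92 to 9.41 with a median of 8.11, so the saline arrays sat at the low end of the controls and naive replicates 1 and 2 near the high end. In bulk tissue, fewer cells of a type and less RNA per cell cannot be told apart. The part of this tissue in the other differences was not tested.

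Cfap45, Rsph9, Stk36 and Odf3b, of which the first 3 are known from motile cilia, fell as well. Cfap45, an inner protein of the doublet microtubules of cilia, measured 7.48, 7.99 and 7.10 in saline and 8.55, 8.60 and 9.02 in naive, without overlap (difference -1.20, SE 0.22, adjusted p = 0.0125). Odf3b, a relative of sperm tail outer dense fibre proteins, gave 8.16, 8.32 and 8.12 and 9.04, 9.24 and 9.50, with the saline arrays close together and all below the 8.38 to 9.40 of the other controls (difference -1.06, SE 0.19, adjusted p = 0.0125). The other, dimmer probe of Odf3b overlapped and differed by -0.17 (adjusted p = 0.861). Rsph9, a radial spoke head protein, fell by 0.86 (SE 0.18, adjusted p = 0.0299), and Stk36, a kinase needed for the central apparatus of motile cilia, fell by 1.0 (SE 0.23, adjusted p = 0.0461). Stk36 measured 7.78, 7.97 and 6.95 in saline and 8.50, 8.44 and 8.75 in naive, with saline replicate 3 far below the other arrays.

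A list of other motile cilia genes was drawn up after these calls were seen. The called genes were left out of it, so its lack of called members was fixed and it is no separate test. Of its 24 measured genes 20 had a negative difference, with a median of -0.28, and 9 were lower at an unadjusted p under 0.05. Over all genes 54.9% had a negative difference and 8.88% were lower at that p. Spag6l, a central apparatus protein, was the member with the smallest p (8.42, 8.74 and 8.55 in saline and 8.95, 9.20 and 9.39 in naive, difference -0.61, SE 0.15, adjusted p = 0.0632). Foxj1, the transcription factor that drives motile ciliogenesis, measured 8.48, 7.86 and 6.99 in saline and 7.73, 7.43 and 8.13 in naive and overlapped (difference 0.01, SE 0.31, adjusted p = 0.993).

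The promoter of Cfap45 is shown because it holds an X-box, the element of the RFX factors that serve ciliary genes. It is the window from 250 bases before to 50 bases after the start site (chr1:172520880-172521179, plus strand, GRCm38.p6, RefSeq), and capitals mark the X-box, which begins 19 bases before the start site.
Cfap45: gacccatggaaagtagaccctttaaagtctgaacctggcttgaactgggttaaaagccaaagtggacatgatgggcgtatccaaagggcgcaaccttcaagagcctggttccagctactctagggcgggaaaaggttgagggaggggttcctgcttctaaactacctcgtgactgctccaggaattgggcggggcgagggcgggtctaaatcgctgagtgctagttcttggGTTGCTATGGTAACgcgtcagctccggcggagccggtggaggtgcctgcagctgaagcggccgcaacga
Both strands of 32851 such windows were searched for the X-box and it stood in 0.962% of them. It stood in 1 of 59 lower genes with a window, Cfap45, in 0 of 18 higher genes and in 2 of 18 genes of the motile cilia list (Tekt1 and Zmynd10). A match describes the letters of a window and not a site of binding.

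Neuropeptide genes and genes known from the hypothalamus and pituitary were also among the lower calls. Cartpt, the precursor of the CART peptide, was called by both of its probes. The dimmer probe measured 8.72, 9.72 and 8.73 on saline replicates 1, 2 and 3 and 10.03, 10.33 and 10.58 on the naive replicates (difference -1.26, SE 0.23, adjusted p = 0.0125). The brighter probe measured 9.51, 10.20 and 9.92 and 10.62, 10.74 and 11.08 (difference -0.94, SE 0.19, adjusted p = 0.0169). On both probes saline replicate 2 was the saline array nearest to naive, and the groups did not overlap. At 4 h the dimmer probe stood at 10.27 ± 0.06 with ketamine, 9.83 ± 0.19 with memantine and 10.04 ± 0.10 with PCP (SD, n = 3 each).

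The promoter window of Cartpt (chr13:99900634-99900933, minus strand, GRCm38.p6, RefSeq) is shown because it holds the cAMP response element TGACGTCA, in capitals, which begins 112 bases before the start site.
Cartpt: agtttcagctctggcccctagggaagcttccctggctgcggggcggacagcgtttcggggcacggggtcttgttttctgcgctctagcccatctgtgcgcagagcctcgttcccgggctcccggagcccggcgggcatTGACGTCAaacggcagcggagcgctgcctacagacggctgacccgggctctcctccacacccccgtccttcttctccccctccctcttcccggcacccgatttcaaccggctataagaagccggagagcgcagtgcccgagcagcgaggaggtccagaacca
This element, searched on both strands, stood in 1.79% of all windows, in 2 of 59 lower genes (Cartpt and Cdc42) and in 1 of 18 higher genes (Anapc10).

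Igsf1, a membrane glycoprotein of pituitary and hypothalamic cells, had the largest fall among the called genes with a name. It measured 9.55, 10.03 and 8.19 in saline and 10.50, 11.07 and 11.19 in naive (difference -1.66, SE 0.35, adjusted p = 0.0297), and saline replicate 3 was the lowest. Of its 3 further probes, 1 of similar brightness differed by -1.21 (adjusted p = 0.0729) and the others by -0.21 and -0.05. Nmu, which encodes the peptide neuromedin U, gave 6.42, 6.54 and 6.43 in saline and 7.14, 7.94 and 7.68 in naive (difference -1.12, SE 0.24, adjusted p = 0.0299), and its saline values lay close together. Avpr1a, the vasopressin V1a receptor, fell by 0.94 (SE 0.22, adjusted p = 0.0475), while its other probe differed by 0.17.

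Hap1, huntingtin-associated protein 1, measured 12.25, 13.18 and 12.84 in saline and 13.29, 13.72 and 13.92 in naive (difference -0.89, SE 0.21, adjusted p = 0.0465). The groups were separated by a narrow gap, saline replicate 1 was the lowest, and 3 dimmer probes of Hap1 differed by -0.21 to 0.18. Adcy8, a calcium-stimulated adenylyl cyclase, gave 7.83, 9.10 and 8.61 in saline and 9.17, 9.54 and 9.70 in naive (difference -0.96, SE 0.18, adjusted p = 0.0148), again with saline replicate 1 lowest and replicate 2 nearest to naive.

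A list of hypothalamic neuron markers was also drawn up after the calls were seen. It did not hold Cartpt or Hap1 and is no separate test of their falls. It had no called member among 21 measured, which follows in part from leaving out these called genes, and 0.275% of all genes were called lower. Of the 21 measured, 17 had a negative difference, with a median of -0.52, and 8 were lower at an unadjusted p under 0.05, against 54.9% and 8.88% of all genes. Oxt, oxytocin, measured 9.92, 10.52 and 7.88 in saline and 10.78, 11.92 and 11.96 in naive (difference -2.11, SE 0.61, adjusted p = 0.116), and Avp, vasopressin, 7.03, 9.84 and 7.01 and 9.29, 9.86 and 10.63 (difference -1.96, SE 0.62, adjusted p = 0.151). Saline replicate 3 was far below all others for Oxt, and for Avp saline replicate 2 lay among the naive arrays while replicates 1 and 3 lay well below. Resp18, a protein of neuroendocrine secretory granules, had the smallest p of the list (11.34, 12.08 and 11.58 in saline and 12.38, 12.83 and 13.01 in naive, difference -1.08, SE 0.26, adjusted p = 0.0518). The mean level of the list was 8.47, 8.82 and 8.13 on saline replicates 1, 2 and 3 and 8.73, 9.32 and 9.30 on the naive replicates, within the 8.32 to 9.56 of the 18 other controls except for saline replicate 3. Its part in the falls of Cartpt, Igsf1 and Hap1 was not tested.

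Slc27a3, Acads, Pygl and Ddo, which act in lipid, sugar and amino acid metabolism, fell. Slc27a3, of the fatty acid transport family, measured 7.23, 8.14 and 7.40 in saline and 8.72, 8.64 and 8.69 in naive (difference -1.10, SE 0.20, adjusted p = 0.0125), and the 3 naive arrays were almost identical. Acads, the short-chain acyl-CoA dehydrogenase of mitochondria, fell by 0.94 (SE 0.20, adjusted p = 0.0299). Pygl, a glycogen phosphorylase, fell by 1.0 (SE 0.20, adjusted p = 0.0169). The other probe of Acads, which was dimmer, differed by -0.17, and that of Pygl, which was brighter, by -0.36 (adjusted p = 0.918 and 0.492). Slc27a3 was the only called member of 21 measured genes of lipid storage and fatty acid oxidation, where 7 were lower and 0 higher at an unadjusted p under 0.05 and the median was -0.12. Of all genes 0.275% were called lower, and 8.88% were lower and 4.68% higher at that p. Ddo, D-aspartate oxidase, fell by 1.09 (SE 0.21, adjusted p = 0.0156), and its 3 other probes also had negative differences, from -0.62 to -0.37.

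Col18a1, Itih3, Rhoj and Serpina3n, known from the extracellular matrix, vessels and astrocytes, fell. Col18a1, the collagen XVIII of basement membranes, measured 7.55, 8.19 and 7.59 in saline and 9.07, 8.89 and 8.93 in naive (difference -1.18, SE 0.20, adjusted p = 0.0125), with saline replicate 2 nearest to naive. Its 2 dimmer probes differed by -0.59 and 0.02. Itih3, a heavy chain of the inter-alpha-trypsin inhibitors that bind hyaluronan, was called by both of its probes, which differed by -1.16 and -1.07 (SE 0.25, adjusted p = 0.0312 for the larger). Rhoj, a small GTPase of endothelial cells, fell by 0.99 (SE 0.20, adjusted p = 0.016), and Serpina3n, an acute-phase serpin that reactive astrocytes express, fell by 0.95 (SE 0.23, adjusted p = 0.048). Serpina3n measured 7.71, 8.92 and 8.87 in saline and 9.29, 9.42 and 9.65 in naive, with saline replicate 1 far below the other arrays. The dimmer probes of Rhoj differed by -0.26 and 0.09. No marker of endothelial cells, mural cells or astrocytes was called, while 0.0317% of all genes were called higher and 0.275% lower. The medians of these lists were 0.05, -0.26 and -0.01.

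The other large falls had no list of their own. Ern2, an endoplasmic reticulum stress sensor known from gut epithelium, measured 7.07, 7.07 and 6.61 in saline and 7.93, 8.45 and 8.48 in naive (difference -1.37, SE 0.28, adjusted p = 0.018). Tmie, a part of the mechanotransduction complex of inner ear hair cells, gave 8.60, 9.08 and 8.26 and 9.67, 10.02 and 10.08 (difference -1.28, SE 0.25, adjusted p = 0.0156). Both sets were well separated, and saline replicate 3 was the lowest in each. Rom1, a protein of photoreceptor discs, Evpl, the desmosomal envoplakin, and Stk32a, a protein kinase, differed by -1.21, -1.20 and -1.16. In saline Rom1 measured 6.84, 7.88 and 6.26, Evpl 7.61, 7.85 and 6.39, and Stk32a 7.70, 8.13 and 6.69. In naive Rom1 measured 8.30, 8.14 and 8.16, Evpl 8.36, 8.50 and 8.58, and Stk32a 8.22, 8.62 and 9.15. Saline replicate 3 was the lowest array for each of these genes. The other, dimmer probe of Stk32a was higher in saline without overlap (0.46, unadjusted p = 0.0435, adjusted p = 0.400). Slc39a8, a zinc and manganese importer, and Olfr444, an odorant receptor gene, differed by -1.12 and -1.14, with adjusted p = 0.0472 and 0.0461. The other, brighter probe of Slc39a8 was higher in saline without overlap (0.53, unadjusted p = 0.0376, adjusted p = 0.378), and the other probe of Olfr444 differed by 0.01. Of 67 histone genes 1 was called, H4c12, a histone H4 gene, which fell by 0.92 (SE 0.20, adjusted p = 0.0299). Of all genes 0.275% were called lower.

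**Figure D3:**
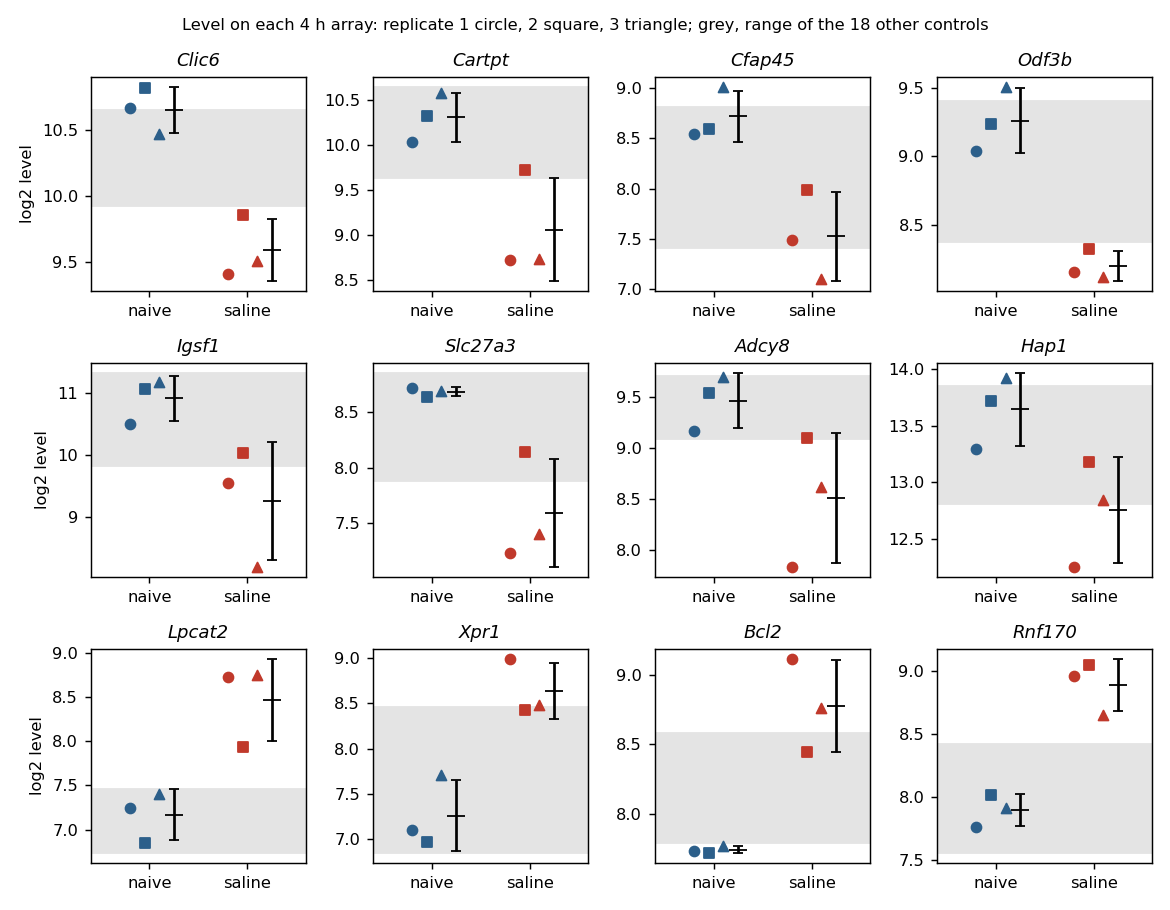
Log2 level of 12 called genes on the naive (blue) and saline (red) arrays of 4 h, a panel for each gene with its own axis, with a circle, square and triangle for replicates 1, 2 and 3. The black marks are the mean and SD of 3 arrays, and the grey band spans the 18 saline and naive arrays of 1, 2 and 8 h. Saline replicate 2 is often the saline array nearest to naive, as for Cartpt and Adcy8.

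Of the 95 named genes 24 rose. Lpcat2, which rebuilds phosphatidylcholine from lysophosphatidylcholine, measured 8.72, 7.93 and 8.75 in saline and 7.25, 6.85 and 7.41 in naive, and every saline array lay above the 6.73 to 7.45 of the other controls (difference 1.30, SE 0.22, adjusted p = 0.0125). Its 2 other probes differed by 0.29 each. Xpr1, the phosphate exporter, gave 8.99, 8.43 and 8.49 and 7.10, 6.96 and 7.71 (difference 1.38, SE 0.27, adjusted p = 0.0156), whereas its 6 other probes, 3 of them brighter, differed by -0.34 to 0.41.

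Bcl2, which blocks apoptosis at the mitochondrion, measured 9.11, 8.45 and 8.76 in saline and 7.74, 7.72 and 7.77 in naive without overlap (difference 1.03, SE 0.23, adjusted p = 0.0387). All 3 naive values lay below the 7.79 to 8.58 of the other controls. Saline replicates 1 and 3 lay above that range and replicate 2 within it. The 8 other probes of Bcl2 differed by -0.22 to 0.90. The brightest overlapped and differed by 0.09. Another that was brighter than the called probe was lower in saline without overlap (-0.14, adjusted p = 0.859). Rnf170, a ubiquitin ligase of the endoplasmic reticulum that acts on inositol trisphosphate receptors, gave 8.97, 9.05 and 8.65 in saline and 7.77, 8.02 and 7.92 in naive (difference 0.99, SE 0.21, adjusted p = 0.0299), with every saline array above the other controls and 4 other probes between -0.27 and 0.23. Ryr2, the calcium release channel, rose by 1.25 (SE 0.28, adjusted p = 0.0364), and saline replicate 3 was the highest at 8.54, while the brightest probe of Ryr2 differed by 0.15.

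The remaining rises included Ppp4r3a, a regulatory subunit of protein phosphatase 4 (1.24, SE 0.24, adjusted p = 0.0156), Ppp1cb, a catalytic subunit of protein phosphatase 1 (1.09, SE 0.24, adjusted p = 0.0337), and Anapc10, a subunit of the anaphase-promoting complex (1.15, SE 0.25, adjusted p = 0.0299). The called probes of these genes were dim, with mean levels over 60 arrays of 6.40, 6.55 and 6.59. The brightest probe of Ppp4r3a differed by 0.32 (adjusted p = 0.427). The brighter probes of Ppp1cb differed by 0.63 and 0.58 (adjusted p = 0.580 and 0.658). Those of Anapc10 differed by 0.21 and -0.03. Pias4, a SUMO ligase, rose by 1.20 (SE 0.27, adjusted p = 0.0337), and Hsd17b3, an enzyme of testosterone synthesis, by 1.31 (SE 0.31, adjusted p = 0.0461). Their other probes differed by 0.28 for Pias4 and by 0.11 and 0.33 for Hsd17b3. Olfr229, an odorant receptor gene, had the largest rise among the called genes with a name. It measured 7.13, 7.80 and 9.10 in saline and 6.39, 6.26 and 6.61 in naive (difference 1.59, SE 0.37, adjusted p = 0.0472), and saline replicate 3 was the highest by a wide margin. Cyp2c68, a cytochrome P450, also had its highest value on saline replicate 3 (7.25, 7.35 and 8.75 in saline and 6.39, 6.47 and 6.29 in naive, difference 1.40, SE 0.33, adjusted p = 0.0461). Chst10, which makes the HNK-1 carbohydrate, Dnajc30, a mitochondrial J-domain protein, Depdc1a, a gene of dividing cells, and Olfr727 differed by 1.17, 1.12, 1.28 and 1.21. The other probe of Dnajc30 was far brighter and went the other way, lower in saline without overlap (-0.41, unadjusted p = 0.00339, adjusted p = 0.163). The brighter probe of Chst10 differed by 0.01, and the 4 other probes of Depdc1a by -0.58 to 0.52.

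Among genes with several probes, all probes had the sign of the call in 23 of 45 lower and 10 of 20 higher genes. In 12 of those 45 and 3 of those 20, another probe had an unadjusted p under 0.05 in the same direction, and in 23 and 2 genes the called probe was the brightest. More than 1 probe was called for Tsr3, Cartpt and Itih3 and for no gene that rose. Tsr3, an enzyme that modifies ribosomal RNA, measured 10.56, 11.55 and 10.67 in saline and 11.81, 12.32 and 12.60 in naive on the probe with the smaller p (difference -1.32, SE 0.28, adjusted p = 0.0299). The remaining probe of Tsr3, dimmer at a mean level of 9.96, overlapped and differed by -0.06 (adjusted p = 0.951).

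Most odorant receptor genes had a positive difference, and the difference rested on saline replicate 3. Of 1065 odorant receptor genes 679 had a positive difference, while 54.9% of all genes had a negative one. At an unadjusted p under 0.05, 101 were higher, against 4.68% of all genes. The calls held 2 as higher, against 0.0317% of all genes. Odorant receptor genes were dim, with a median level of 6.74 against 7.56 over all genes. The 11059 dimmest tested probes of any kind had a median difference of 0.06 and held 17 of the 30 higher probes. The median of the odorant receptor genes was 0.13, with deviations of -0.03 on saline replicate 1, 0.06 on replicate 2 and 0.27 on replicate 3. It was 0.02 without saline replicate 3. Their mean level was 6.73, 6.82 and 7.06 on saline replicates 1, 2 and 3 and 6.69, 6.78 and 6.74 on the naive replicates. Vomeronasal receptors had a median of 0.12, which was likewise 0.02 without replicate 3.

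The comparison bears on whether an injection leaves a glucocorticoid trace after 4 h. None of 29 glucocorticoid receptor targets was called, and 0.0317% of all genes were called higher and 0.275% lower. With shares this small, the lack of a call among 29 genes says little about these targets. In this list 4 were lower and 0 higher at an unadjusted p under 0.05, 20 had a negative difference and the median was -0.13. Over all genes 8.88% were lower and 4.68% higher at that p, 54.9% had a negative difference and the median was -0.04. Fkbp5, a co-chaperone that restrains the receptor, measured 8.53, 8.33 and 7.77 in saline and 9.19, 9.01 and 8.93 in naive, and all 3 saline values were below the 8.54 to 9.92 of the other controls. Its difference was -0.83 (SE 0.20, adjusted p = 0.0531). The adjusted p ranged from 0.0218 to 0.883 over the alternatives, and the difference was -0.61 (adjusted p = 0.238) without saline replicate 3.

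At 1, 2 and 8 h the difference of Fkbp5 between saline and naive was 0.32, 0.55 and 0.26. Sgk1, a kinase that corticosteroids induce, measured 11.70, 11.86 and 12.05 in saline and 12.31, 11.52 and 11.68 in naive at 4 h, with overlap (difference 0.03, SE 0.22, adjusted p = 0.975). Its differences at 1, 2 and 8 h were 0.55, 0.49 and -0.10. Tsc22d3, which encodes the leucine zipper protein GILZ, gave 12.24, 11.74 and 12.14 and 12.05, 11.75 and 11.71 (difference 0.21, SE 0.20, adjusted p = 0.745), and Plin4, a lipid droplet protein, 7.30, 7.52 and 6.66 and 8.58, 6.95 and 7.48 (difference -0.51, SE 0.34, adjusted p = 0.592). Hif3a, a hypoxia factor subunit and receptor target, was lower without overlap (7.20, 7.58 and 7.0 against 8.61, 7.70 and 8.06) and did not pass (difference -0.87, SE 0.25, adjusted p = 0.116).

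The promoter window of Sgk1 (chr10:21993640-21993939, plus strand, GRCm38.p6, RefSeq) is shown because it holds a full palindromic glucocorticoid response element, in capitals, which begins 189 bases before the start site.
Sgk1: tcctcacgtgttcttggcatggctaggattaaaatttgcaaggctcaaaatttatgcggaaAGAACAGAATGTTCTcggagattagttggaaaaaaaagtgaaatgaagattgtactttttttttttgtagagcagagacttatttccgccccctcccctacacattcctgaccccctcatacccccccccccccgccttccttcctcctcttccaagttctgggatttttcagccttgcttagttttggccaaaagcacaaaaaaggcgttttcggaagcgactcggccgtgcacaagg
This form, searched on both strands, stood in 3 of all windows (0.00913%), and Sgk1 was the only one of 24 receptor targets with a window to hold it.

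Immediate early genes did not pass either. Of 35 measured, 0 were called, while 0.0317% of all genes were called higher and 0.275% lower. At an unadjusted p under 0.05, 6 were higher and 2 lower (4.68% and 8.88% of all genes). The median was 0.08, or -0.31 with median scaling. Klf4, a zinc finger factor, had the smallest p (7.89, 7.75 and 8.23 in saline and 7.41, 7.50 and 7.04 in naive, difference 0.63, SE 0.20, adjusted p = 0.161). Fos measured 8.89, 8.45 and 8.89 in saline and 8.50, 7.89 and 8.27 in naive and overlapped (difference 0.52, SE 0.24, adjusted p = 0.363). Arc, an activity-regulated synaptic protein, gave 9.21, 9.38 and 9.41 and 8.94, 9.03 and 9.09, a narrow separation with saline higher (difference 0.31, SE 0.27, adjusted p = 0.701).

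Calr, the chaperone calreticulin, had the smallest p among 21 heat shock and chaperone genes, measured 10.67, 9.89 and 9.42 in saline and 8.96, 8.63 and 8.75 in naive, and was not called (difference 1.21, SE 0.32, adjusted p = 0.0762). The clock genes Per1, Per2, Dbp and Ciart were not called, with differences of 0.09, 0.20, -0.04 and -0.53. The list of 20 measured clock genes had 0 members at an unadjusted p under 0.05 and a median of 0.06. At that p 4.68% of all genes were higher and 8.88% lower. Ciart, a repressor of the clock, spread widely in saline (7.68, 8.98 and 9.83) and little in naive (9.42, 9.11 and 9.55) on its brightest probe. Its 2 other probes did not show this spread and differed by 0.07 and 0.02. Another probe of Per2 differed by 0.41 (unadjusted p = 0.0338, adjusted p = 0.363). Dusp1, Hes5 and Fgf11 differed by -0.01, 0.29 and 0.98, with none called (adjusted p = 0.108 for Fgf11). Cdkn1a, which encodes the cell cycle inhibitor p21, was not called by any of its 3 probes. The brightest differed by -0.08 with overlap, and the other 2 were lower in saline without overlap, by -0.50 (unadjusted p = 0.0132, adjusted p = 0.265) and -0.60 (unadjusted p = 0.0264, adjusted p = 0.335).

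The markers of striatal projection neurons were bright in both groups, as striatal tissue should show, and none was called. The 20 measured markers had a median level of 12.4 on the log2 scale, against 7.56 over all genes. Their median difference was -0.02, with none at an unadjusted p under 0.05. At that p 4.68% of all genes were higher and 8.88% lower, and 0.0317% and 0.275% were called. Rgs9, a regulator of dopamine and opioid receptor signalling, measured 13.59, 13.79 and 14.08 in saline and 13.91, 14.10 and 13.98 in naive. Pdyn, prodynorphin, gave 12.87, 13.00 and 13.05 and 13.11, 12.69 and 13.16, and Tac1, the substance P precursor, 12.53, 12.69 and 12.63 and 12.47, 12.29 and 12.43. Rgs9 and Pdyn overlapped (a dimmer probe of Pdyn differed by 0.45, adjusted p = 0.394), while Tac1 was separated by a narrow gap with saline higher (difference 0.21, SE 0.19, adjusted p = 0.701).

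Markers of cortical projection neurons had higher values on saline replicates 2 and 3, and none passed the test. All 9 measured had a positive difference, while 54.9% of all genes had a negative one. At an unadjusted p under 0.05, 1 was higher, against 4.68% of all genes. The median was 0.35, with deviations of 0.04, 0.57 and 0.71 on saline replicates 1, 2 and 3. Slc17a7, the vesicular glutamate transporter of cortical neurons, measured 10.92, 11.45 and 11.64 in saline and 10.66, 10.11 and 9.31 in naive (difference 1.31, SE 0.64, adjusted p = 0.412), without overlap. The mean level of the list was 9.10, 9.67 and 9.88 on saline replicates 1, 2 and 3 and 9.26, 8.98 and 8.99 on the naive replicates, against 8.61 to 9.79 on the other 18 controls. Interneuron markers had a median of -0.22, with 9 of 12 below 0 and -0.58 on saline replicate 3. Of the 12, 4 were lower at an unadjusted p under 0.05, against 8.88% of all genes. The groups did not overlap, with saline lower, in 3 of the 12, against 7.3% of all genes. Thalamic neuron markers had a median of -0.25, with 5 of 7 below 0 and 1 lower at that p. The medians of oligodendrocytes and microglia were 0.11 and -0.03. The part of these cell types in the called differences was not tested.

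**Figure D4:**
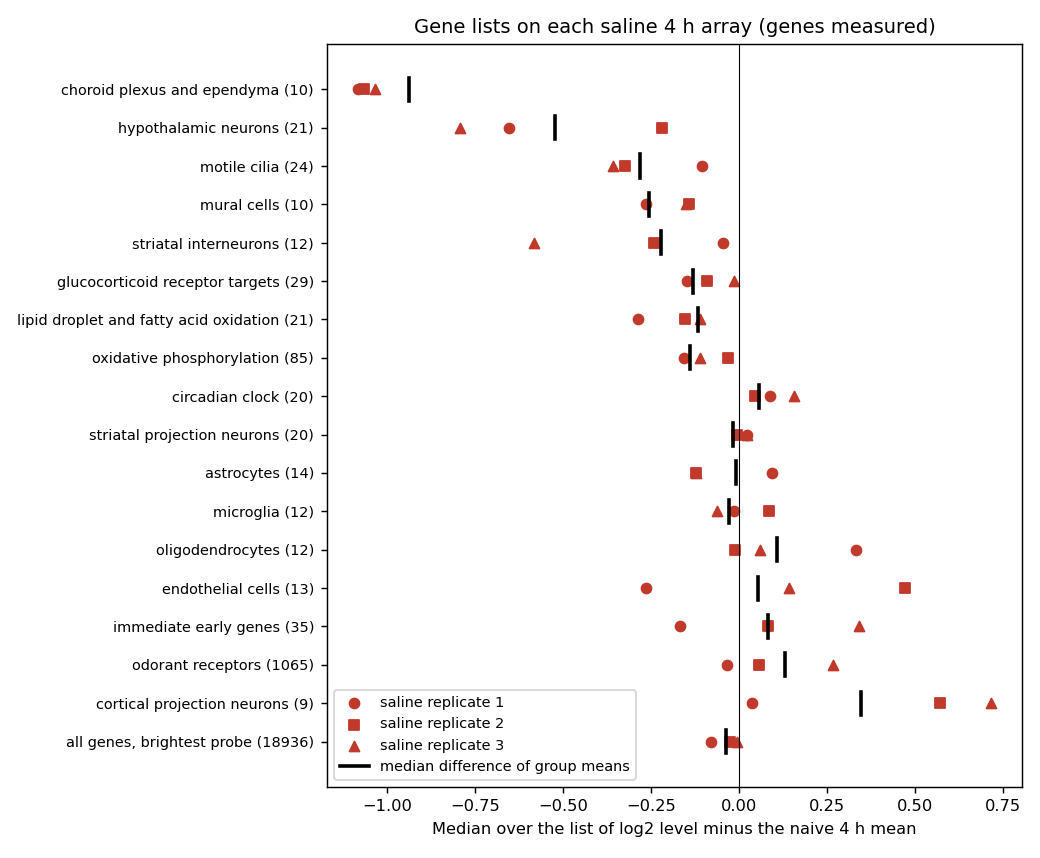
Median over each gene list (y axis, with the number of genes measured) of the log2 level on a saline 4 h array minus the naive 4 h mean (x axis), with a red circle, square and triangle for saline replicates 1, 2 and 3. The black bar is the median difference of the group means. Choroid plexus and ependyma markers lie at -1.08, -1.07 and -1.03, and cortical markers lie at 0.04, 0.57 and 0.71.

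Another scaling shifted the reference point. With median scaling in place of quantile normalization the median over all tested probes moved from -0.01 to -0.20. The list medians then were -1.03 for choroid plexus and ependyma, -1.0 for hypothalamic neurons, -0.56 for motile cilia, -0.66 for glucocorticoid targets, -0.72 for striatal projection neurons and 0.04 for cortical projection neurons.

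The differences of 4 h were not called at the other times. Saline against naive gave 0 calls at 1, 2 and 8 h by limma, with 1805 (4.08%), 1880 (4.25%) and 1930 (4.36%) probes at an unadjusted p under 0.05. The 85 lower probes of 4 h had medians of -0.09, 0.01 and -0.10 at 1, 2 and 8 h, and the 30 higher probes 0.06, -0.11 and -0.08. Of the 30 higher probes, 8 had all 3 saline arrays above every one of the 18 other controls, as did 0.224% of all tested probes. Of the 85 lower probes, 21 had all 3 below, as did 0.253% of all. The called probes were chosen by these same saline arrays, so larger shares among them follow in part from that choice. A naive array of 4 h lay beyond the 18 other controls on the opposite side in 37 lower and 15 higher probes. The median of naive at 4 h minus the other naive arrays was 0.17 for the lower and -0.29 for the higher probes. The same for saline, against the other saline arrays, was -0.74 and 0.85.

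The test of the difference between times called no probe in the model of 20 group means, and other settings did call some. For the saline effect at 4 h against that at 8 h, 0 probes passed and 3509 (7.93%) had an unadjusted p under 0.05, with 7, 0 or 2 calls without saline replicate 1, 2 or 3. For 4 h against the mean of 1, 2 and 8 h, 0 passed and 3935 (8.9%) had an unadjusted p under 0.05, with 36, 210 or 8 calls without saline replicate 1, 2 or 3. That contrast gave 1414 calls with the array position as a block, 17 on the authors' log2 values and 12 without background correction. The named genes with the smallest p between 4 h and 8 h were Gpr161, Col18a1, Cd300lg, 1700029J07Rik and Depdc1a, all with an adjusted p = 0.368. Gpr161, a ciliary receptor of the Hedgehog pathway, measured 7.05, 6.84 and 7.75 in saline and 5.96, 6.25 and 6.03 in naive at 4 h, and the difference was 1.13 at 4 h and -0.28 at 8 h. Of its naive values at 4 h, 2 lay below the 6.15 to 7.20 of the other controls, and 1 saline value lay above. Its other probe differed by -0.19 at 4 h.

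**Figure D5:**
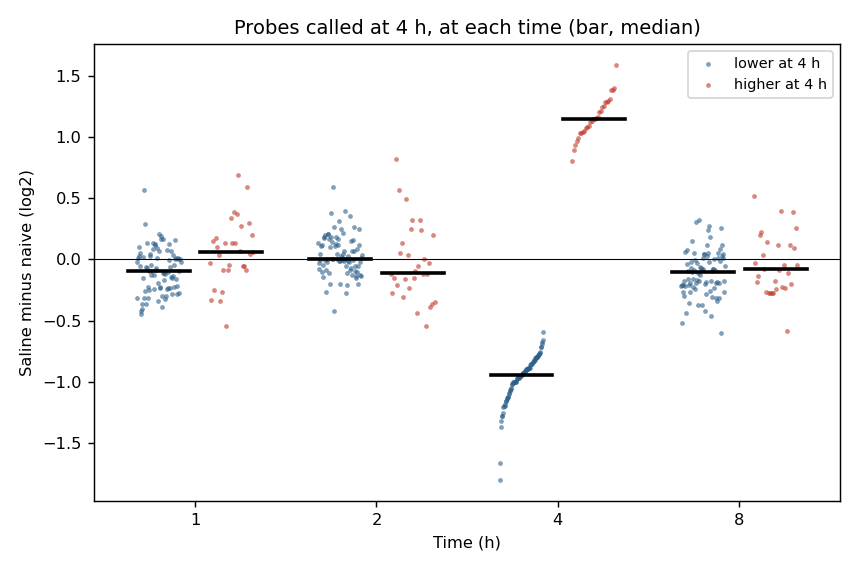
Log2 difference of saline against naive (y axis) at 1, 2, 4 and 8 h (x axis) for the 85 probes called lower (blue) and the 30 called higher (red) at 4 h, a point for each probe with a black bar at the median. The medians are -0.94 and 1.15 at 4 h, the time used to choose the probes, and between -0.11 and 0.06 at the other times.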

How the data were processed

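The authors ran RNA pools from striatum on 60 Illumina bead arrays of the MouseWG-6 v2 design. The deposited table used here holds intensity values per probe before normalization, and the authors' own processed table, with log2 values, served as an alternative. No other column was used. Intensities were background-corrected with normexp (offset 50), quantile-normalized and log2-transformed in limma 3.58.1 (R 4.3.3). Of 45281 probes, 44236 that exceeded the 25th percentile of their array on at least 3 arrays were tested, since detection p-values were not used here. A single model held 20 group means over 60 arrays (40 residual and 7.24 prior degrees of freedom), and moderated tests were adjusted by Benjamini-Hochberg over all tested probes with a threshold of 0.05. Gene symbols came from the platform annotation, updated through Entrez identifiers: 34885 probes had 1 symbol, 18 several and 10378 none. Lists used the brightest probe of each of 18936 genes. The members and lists were chosen with earlier results of these data known. The genes named were the 15 largest rises and 15 largest falls without overlap, up to 3 members of each list, 16 genes of the study's text and up to 5 genes with the smallest p between 4 h and 8 h. Alternatives covered the scaling, filter, variance model, blocks, the arrays fitted and leaving out each array. The number of arrays limits the precision. The tests were checked on simulated data in which all groups had the same spread for a probe. The saline arrays of 4 h spread more than the other groups, and that check does not cover this.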

Additional observations from a re-analysis of the deposited data

How the results depend on the processing

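The counts moved by more than 1.5 times as follows, against 115 called, 30 higher and 85 lower. The authors' log2 values gave 223, with 90 higher and 133 lower, and no background correction gave 183, with 68 higher. Median scaling gave 27, with 2 higher and 25 lower. A filter that asked for all 60 arrays gave 213, with 188 lower. The BeadChip as a block gave 33, with 5 and 28, and 22 of the 33 were among the 115. The position as a block gave 22, with 15 and 7, and 3 of the 22 were among the 115. Array weights, a fit to the saline and naive arrays only and a fit to the 6 arrays only gave 0 in total and in each direction. Leaving out 1 array gave 0 to 1123 calls, with 0 to 334 higher and 0 to 789 lower, and without saline replicate 3 the calls held 19 of the 115. 1 called probe turned its sign with the position as a block. With 112 of the 115 free of overlap, a kept sign says little about stability. Without saline replicates 1 and 3 there were 94 higher and 5 lower. The replicate number as a block gave 92 calls, 91 of them among the 115. The same-numbered saline and naive arrays had correlations of 0.18, 0.03 and -0.03 in their deviations, so the numbers gave no pairing. 2 alternatives were chosen after seeing the data: without saline replicate 3 and normalized anew there were 57 calls, with 26 lower, and above the median level there were 210, with 176 lower. For 4 h against 8 h, where 0 passed, leaving out 1 array gave 0 to 7, leaving out saline replicates 1 and 3 gave 22 and normalizing anew gave 2. For 4 h against the other times, where 0 passed, the authors' values gave 17, no background correction 12, the stricter filter 12, the position block 1414, array weights 1, 1 array left out 0 to 210, replicates 1 and 3 left out 49, normalizing anew 8 and the probes above the median level 14. The stricter filters tested fewer probes. The cause of the other changes was not tested. No alternative replaces the confounded position of the arrays at 4 h.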
